A study of Mus musculus with 12 samples.

Results

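Among LSK cells sorted by the level of a GFP reporter, 37 array probes were chosen for a change mainly at the first of 3 steps, between the NS-GFP1+ and the NS-GFP2+ fraction. They were 23 rising probes of 20 named genes and 3 unnamed probes, and 14 falling probes of 11 named genes and 2 unnamed probes. A surrogate light chain gene of early B-cell development (Vpreb2), a cyclic nucleotide phosphodiesterase (Pde2a) and protein kinase C beta (Prkcb) were among the falling genes. A ligand of the PD-1 receptor (Pdcd1lg2), a beta globin (Hbb-b1), a ligand of the TAM receptors (Gas6) and a pair of neighbouring protease inhibitor genes (Ctla2a and Ctla2b) were among the rising genes.

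The probes were chosen from log2 values by 4 criteria: a value above the median of its sample in all 12 samples, a difference of at least 0.6 in size between the NS-GFP4+ mean and the NS-GFP1+ mean, a share of at least 0.6 of that difference already present at NS-GFP2+, and 3 NS-GFP1+ values that were all above or all below the 9 others. Of 42022 non-control probes, 18876 met the first criterion, and the 37 members are 0.196% of these. The comparisons of NS-GFP1+ with the other fractions therefore chose the members, and their values are given as a description with no test. The same holds for the share reached at NS-GFP2+. The criteria do not use the NS-GFP3+ mean, and in the member Pdlim7 the last step of 0.50 was larger than the first of 0.48. Single samples moved the membership, and without NS-GFP1+ replicate 3 the same criteria gave 108 rising and 44 falling probes.

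All samples were LSK cells sorted from bone marrow of C57BL/6 mice that carry the NS-GFP transgene, in which a region of what the labels call the NS promoter drives GFP. The 4 fractions, NS-GFP1+, NS-GFP2+, NS-GFP3+ and NS-GFP4+, were parted by GFP level, had no stated treatment and hold 3 samples each, with RNA from 10000 cells per sample. The labels number the fractions without saying which end is brightest, and they give neither the age of the mice nor whether the 3 samples of a fraction came from separate animals, and a p-value then measures sample-to-sample spread that may be of technical origin. The question the fractions pose is how gene expression within the LSK compartment differs along the reporter level.

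LSK cells are the lineage-negative marrow cells that carry Sca-1 and Kit, and they hold the hematopoietic stem cells together with the multipotent progenitors that descend from them. Stem cells are known for a quiescent state and a small set of surface and transcription factor genes, while lymphoid-primed progenitors begin to transcribe early B-lineage genes before they commit. Expression along such a sort can change evenly over the fractions or mainly at a single boundary, and the probes described here were chosen for a change of the second kind.

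RNA of each sample was labelled with Cy3 and measured in a single colour on an Agilent mouse expression array, and values below are log2 values of the deposited table unless a sentence says that they are differences. The column medians of that table were 6.11 to 6.12. In the per-array files, NS-GFP3+ replicate 3 is a copy of NS-GFP2+ replicate 3 over 42071 positions. In the table the columns of these samples share only 70 equal values, and the table with its 12 columns was used. Replicate 3 stood apart from replicates 1 and 2 over the 4 fractions: 34.6% of the 18876 probes differed between them in limma, in a fit added after the data were seen. That fit does not measure the spread between replicate numbers, since only 1 number stands on the side of replicate 3. Kit, the receptor that defines these cells, averaged 12.69 ± 0.43, 12.73 ± 0.23, 12.93 ± 0.25 and 12.90 ± 0.27 (SD, n = 3) from NS-GFP1+ to NS-GFP4+, and the nucleolar gene Gnl3 averaged 10.67 ± 0.05, 10.54 ± 0.16, 10.70 ± 0.27 and 10.41 ± 0.06. Neither passed limma for NS-GFP4+ against NS-GFP1+ (adjusted p = 0.655 and 0.239). No probe is paired with Ly6a, the Sca-1 gene, so it was not analysed here.

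Few of the probes with a change of this size met both the separation and a share of at least 0.6 at the first step. The number depended on the cut-off, and at a share of at least 0.5 it was 60 rising and 34 falling probes. A difference of at least 0.6 between NS-GFP4+ and NS-GFP1+ was found at 1211 probes, of which 684 were higher and 527 lower in NS-GFP4+, and 500 of them also had separate NS-GFP1+ values. The 37 members had reached a median of 66.3% of the difference at NS-GFP2+ and 79.7% at NS-GFP3+, and the 500 probes 39.1% and 58.4%. The mirrored criteria, with the 3 NS-GFP4+ values apart from the 9 others and a share of at most 0.4 at NS-GFP3+, gave 111 last-step probes, 31 rising and 80 falling. Falling probes were thus 14 of the 37 first-step and 80 of the 111 last-step probes, a count for which no test was made.

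At the edge of the size criterion, Ctla2a lay just inside with a difference of 0.61 and Gnb1l just outside with 0.59 among rising probes, and Atp1b3 lay inside with -0.61 and A_30_P01017790 outside with -0.5997 among falling probes. At the edge of the share criterion, Ctla2b lay inside with 0.605 and A_30_P01023285 outside with 0.599. Sapcd1 lay inside with 0.607 and Cd79b, a part of the B-cell receptor complex, outside with 0.598. Probes just inside and just outside each edge were thus nearly alike in the measure that parted them.

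The largest difference of all members was that of Vpreb2, which encodes a part of the surrogate light chain, the stand-in that pairs with the heavy chain in the pre-B-cell receptor. Its probe read 10.22, 10.25 and 9.75 in NS-GFP1+, 8.41, 8.42 and 8.04 in NS-GFP2+, 7.49, 7.35 and 7.44 in NS-GFP3+ and 7.30, 8.03 and 7.06 in NS-GFP4+ (log2). The NS-GFP1+ samples were the highest, NS-GFP2+ lay between, and the NS-GFP3+ and NS-GFP4+ samples overlapped at the bottom. NS-GFP2+ was 3.45-fold and NS-GFP4+ 6.13-fold below NS-GFP1+, so the first step held 0.68 of the log2 difference. NS-GFP3+ lay a further 0.87 below NS-GFP2+ (SE 0.23, limma adjusted p = 0.943), with no overlap between the 3 samples of each. The probe may also capture transcripts of the close paralog Vpreb1, so the signals of these genes are not fully separate. In bulk samples, fewer cells of a type and less RNA per cell cannot be told apart either.

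The other B-cell genes on the list drawn up for this comparison were measured on their own probes. Of 10 listed genes 8 were on the array and 3 lay above the median in every sample, and all 3 were lower in NS-GFP4+ than in NS-GFP1+ in limma, where 5.33% of all tested probes were lower. Vpreb1 averaged 12.61 ± 0.35, 10.42 ± 0.26, 9.17 ± 0.36 and 8.56 ± 0.26 (SD, n = 3) from NS-GFP1+ to NS-GFP4+, and its first step held 54.1% of the difference of -4.04 (limma adjusted p = 3.61e-06). Blnk, an adaptor of B-cell receptor signalling, had 43.8% of its difference of -3.49 at the first step, and Cd79b had 59.8% of -0.78. Vpreb2 thus shared its direction with these 3 genes, none of which reached the share of 0.6.

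The mean of the 8 B-cell genes on the array was 9.15 to 9.58 in NS-GFP1+, 7.73 to 7.90 in NS-GFP2+, 6.84 to 7.16 in NS-GFP3+ and 6.49 to 6.76 in NS-GFP4+ (range over samples). Ms4a1 and Pax5, genes of committed B cells, lay below the median in all 12 samples. The list moves with Vpreb2, and its part in the result was not tested.

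The 250 bases before the start of Vpreb2 are shown with those of Pdcd1lg2, the rising gene with the largest difference, because these are the members whose expression changed most at this boundary in each direction. The sequences are RefSeq's for GRCm38.p6, 5′ to 3′ along the gene, and capitals mark GATAA, the core bound by GATA factors, and GGAAG, the core bound by Ets factors, on either strand. The windows lie at chr16:17980315-17980564 (Vpreb2, plus strand) and chr19:29410669-29410918 (Pdcd1lg2, plus strand).
Vpreb2: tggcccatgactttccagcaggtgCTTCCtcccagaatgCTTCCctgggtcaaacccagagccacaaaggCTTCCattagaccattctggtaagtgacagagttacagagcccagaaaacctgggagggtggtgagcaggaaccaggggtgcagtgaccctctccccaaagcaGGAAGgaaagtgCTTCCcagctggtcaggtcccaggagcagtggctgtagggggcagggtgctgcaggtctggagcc
Pdcd1lg2: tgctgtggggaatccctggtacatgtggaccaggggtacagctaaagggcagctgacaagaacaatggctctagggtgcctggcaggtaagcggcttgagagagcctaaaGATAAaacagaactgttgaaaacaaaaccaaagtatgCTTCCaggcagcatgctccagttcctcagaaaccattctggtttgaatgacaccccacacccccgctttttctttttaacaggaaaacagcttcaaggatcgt

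The Vpreb2 window held 5 GGAAG matches and no GATAA. At least 5 matches were found in 0.965% of the 32851 RefSeq promoter windows of this length. The Pdcd1lg2 window held 1 match of each motif. RefSeq windows were matched for 26 of the 31 member genes, with 40 start sites in all, and not for Hbb-b1, Marcks, Pole, Rgs11 and Sapcd1. GGAAG was present in 28 of the 40 windows, or 70%, against 64.1% of all windows, and GATAA in 10 of the 40, or 25%, against 22.6%. The 4 other motifs searched, on both strands, were GAGGAAGT of PU.1, TCCC and GGGA with 2 bases between them, of EBF1, TATAAA and the heat shock element GAANNTTC. They were present in 0, 0, 4 and 3 of the 40 windows, against 2.44%, 0.779%, 12.4% and 6.69% of all windows. A match is a description of letters, not a binding site. GAGGAAGT contains GGAAG, so a match of the longer motif is also one of the shorter.

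Pde2a, the phosphodiesterase that hydrolyses cAMP and cGMP and is stimulated by cGMP, had the second largest fall. It read 12.61, 12.56 and 12.33 in NS-GFP1+, 11.36, 11.49 and 11.39 in NS-GFP2+, 11.20, 11.22 and 11.13 in NS-GFP3+ and 11.15, 11.10 and 11.05 in NS-GFP4+. The highest of the 9 later samples was 11.49 and the lowest NS-GFP1+ sample 12.33, and the NS-GFP3+ samples lay below the NS-GFP2+ samples with no overlap. NS-GFP2+ was 2.12-fold and NS-GFP4+ 2.63-fold below NS-GFP1+. The later difference of NS-GFP3+ minus NS-GFP2+ was -0.23 (SE 0.08, limma adjusted p = 1.00).

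Protein kinase C and its substrates carry diacylglycerol and calcium signals to the membrane and cytoskeleton, and both a kinase and a substrate were among the falling members. Prkcb, the beta kinase, was the only gene with 2 member probes. A_55_P1976278 read 9.22, 8.99 and 8.90 in NS-GFP1+, 7.99, 7.89 and 8.08 in NS-GFP2+, 7.81, 7.98 and 8.37 in NS-GFP3+ and 8.14, 8.31 and 8.41 in NS-GFP4+. A_65_P20249 read 8.58, 8.66 and 8.72 in NS-GFP1+, 7.57, 7.84 and 7.69 in NS-GFP2+, 7.43, 7.51 and 7.68 in NS-GFP3+ and 8.02, 7.78 and 8.12 in NS-GFP4+. On both probes the NS-GFP1+ samples were highest, and NS-GFP4+ lay above NS-GFP2+ on average by 0.30 and 0.27. The NS-GFP2+ level was therefore past that of NS-GFP4+, with shares of 1.40 on both. On A_65_P20249 the NS-GFP4+ samples were above all NS-GFP3+ samples, by 0.43 (SE 0.11, limma adjusted p = 0.122, and 0.0388 when replicate numbers are blocked). On A_55_P1976278 the corresponding difference was 0.23 (SE 0.14, limma adjusted p = 0.656) and the samples overlapped.

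Marcks, a membrane-bound substrate of protein kinase C that binds actin, read 10.75, 10.70 and 10.36 in NS-GFP1+, 10.23, 10.21 and 10.12 in NS-GFP2+, 10.05, 9.996 and 9.97 in NS-GFP3+ and 9.88, 9.98 and 9.95 in NS-GFP4+. Its NS-GFP1+ samples were highest, NS-GFP2+ lay above all NS-GFP3+ samples, and NS-GFP3+ overlapped NS-GFP4+. Marcks did not meet the criteria on the per-array files. Aif1, a calcium-binding protein known as Iba1 from macrophages and microglia, read 8.14, 7.92 and 8.17 in NS-GFP1+, 7.39, 6.90 and 7.01 in NS-GFP2+, 6.97, 6.67 and 7.05 in NS-GFP3+ and 7.004, 6.88 and 6.70 in NS-GFP4+. The NS-GFP1+ samples stood above every other sample with a gap of 0.54, and the 3 later fractions overlapped one another. The first step held 0.80 of the difference of -1.22 in Aif1 and 0.62 of the -0.66 in Marcks.

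The remaining falling genes are known from metabolism, the mitochondrion and the cell surface. Papss2, which makes the sulfate donor PAPS, read 8.27, 8.48 and 8.90 in NS-GFP1+, 7.76, 7.67 and 7.96 in NS-GFP2+, 7.38, 7.47 and 7.72 in NS-GFP3+ and 7.47, 7.63 and 7.42 in NS-GFP4+. St3gal6, a sialyltransferase, read 7.80, 7.84 and 7.63 in NS-GFP1+, 7.18, 6.88 and 7.44 in NS-GFP2+, 6.82, 6.83 and 7.18 in NS-GFP3+ and 6.62, 7.01 and 7.40 in NS-GFP4+. In Papss2 the NS-GFP3+ samples overlapped those of both NS-GFP2+ and NS-GFP4+, and in St3gal6 the closest samples on both sides of the first boundary were 7.44 in NS-GFP2+ and 7.63 in NS-GFP1+.

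Chchd10, a protein of the mitochondrial intermembrane space, read 13.38, 13.30 and 13.18 in NS-GFP1+, 12.55, 12.54 and 12.64 in NS-GFP2+, 12.38, 12.49 and 12.58 in NS-GFP3+ and 12.58, 12.65 and 12.79 in NS-GFP4+. Like Prkcb it was lowest in the middle fractions, with a share of 1.16 at NS-GFP2+ and 1.31 at NS-GFP3+. Its NS-GFP4+ samples averaged 0.19 above NS-GFP3+ (SE 0.08, limma adjusted p = 0.469) and overlapped them only through 1 sample of each. Atp1b3, a beta subunit of the sodium-potassium pump, read 11.99, 11.95 and 12.25 in NS-GFP1+, 11.63, 11.63 and 11.64 in NS-GFP2+, 11.75, 11.70 and 11.53 in NS-GFP3+ and 11.56, 11.42 and 11.38 in NS-GFP4+. Its 9 later samples lay within 11.38 to 11.75, below all 3 NS-GFP1+ samples.

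Of the last falling probes, Sapcd1, whose protein is little described, read 8.06, 7.91 and 7.55 in NS-GFP1+, 7.23, 7.34 and 7.19 in NS-GFP2+, 7.02, 6.90 and 6.95 in NS-GFP3+ and 6.98, 6.97 and 6.68 in NS-GFP4+. Its NS-GFP3+ samples lay below all NS-GFP2+ samples. Krtap16-3, a hair keratin-associated protein, differed by -0.82 between NS-GFP4+ and NS-GFP1+ with a share of 0.63. Krtap16-3 was 6.62, 6.64 and 6.84 in NS-GFP4+ and 7.16, 7.20 and 6.9996 in NS-GFP3+, so its samples of the last step did not overlap, and only 0.49 of the difference was present at NS-GFP3+. The unnamed probes A_55_P2027737 and A_55_P2105843 differed by -0.82 and -0.64. The mean over the 12 samples was 7.09 in Krtap16-3, and the dimmest rising members were Pole at 6.92, A_30_P01019476 at 7.03 and Pdlim7 at 7.05, against column medians of 6.11 to 6.12.

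The rising members are given by the role of their product, beginning with secreted and surface proteins, in an order that is not a tested grouping. Pdcd1lg2 encodes PD-L2, a ligand of the inhibitory T-cell receptor PD-1. Its member probe read 6.49, 6.73 and 6.75 in NS-GFP1+, 7.55, 7.66 and 7.47 in NS-GFP2+, 7.33, 7.52 and 7.79 in NS-GFP3+ and 7.84, 7.94 and 8.12 in NS-GFP4+. The lowest of the 9 later samples was 7.33 and the highest NS-GFP1+ sample 6.75, NS-GFP2+ and NS-GFP3+ overlapped, and NS-GFP4+ lay above both. NS-GFP2+ was 1.86-fold and NS-GFP4+ 2.48-fold above NS-GFP1+. The last step added 0.42 (SE 0.13, limma adjusted p = 0.212, and 0.0445 when replicate numbers are blocked).

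Gas6, the vitamin K-dependent ligand of the receptors Tyro3, Axl and Mertk, read 8.49, 8.51 and 8.79 in NS-GFP1+, 9.21, 9.24 and 9.38 in NS-GFP2+, 9.14, 9.18 and 9.74 in NS-GFP3+ and 9.42, 9.52 and 9.84 in NS-GFP4+. Its NS-GFP1+ samples were the lowest and replicate 3 was the highest sample of every fraction. Vldlr, a receptor for apolipoprotein E and reelin, read 10.38, 10.13 and 10.71 in NS-GFP1+, 10.87, 10.75 and 11.17 in NS-GFP2+, 11.08, 11.12 and 11.49 in NS-GFP3+ and 11.11, 11.17 and 11.34 in NS-GFP4+. Here NS-GFP2+ replicate 2 and NS-GFP1+ replicate 3 were only 0.04 apart, and replicate 3 was again the highest sample of each fraction. The difference between NS-GFP4+ and NS-GFP1+ was 1.00 in Gas6 and 0.80 in Vldlr, of which 0.68 and 0.65 were present at NS-GFP2+.

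Emcn, the sialomucin endomucin of endothelium and of stem cells, read 7.72, 7.70 and 7.69 in NS-GFP1+, 8.26, 8.07 and 8.11 in NS-GFP2+, 8.22, 8.20 and 8.33 in NS-GFP3+ and 8.28, 8.35 and 8.50 in NS-GFP4+. Its 3 NS-GFP1+ values spanned 7.69 to 7.72 and lay well below the 9 others, which ran upward from 8.07. Of the 10 endothelial and stromal markers listed, 8 were on the array and 7 above the median throughout, with Col1a2 higher and Pecam1 and Pdgfrb lower in NS-GFP4+ than in NS-GFP1+ in limma, leaving aside the member Emcn. The mean of the 8, Emcn included, was 8.52 ± 0.30, 8.53 ± 0.11, 8.31 ± 0.10 and 8.43 ± 0.09 (SD, n = 3) from NS-GFP1+ to NS-GFP4+. Ccl27a, a chemokine of skin, had a difference of 0.72 with a share of 0.63, and Il18, a cytokine of the interleukin-1 family, 0.67 with 0.61.

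Hbb-b1, an adult beta globin, was the only member from the erythroid list. It read 12.15, 12.15 and 11.90 in NS-GFP1+, 12.70, 12.90 and 13.29 in NS-GFP2+, 13.18, 12.63 and 13.51 in NS-GFP3+ and 13.59, 13.33 and 12.999 in NS-GFP4+. The NS-GFP1+ samples were below all others, and the 3 later fractions overlapped one another over 12.63 to 13.59. Transcripts of the beta globin genes are alike, so the probe may also capture its neighbours of the same cluster. Hba-a1, an alpha globin, read 11.34, 11.56 and 11.42 in NS-GFP1+, 11.84, 12.18 and 13.24 in NS-GFP2+, 12.44, 10.93 and 13.36 in NS-GFP3+ and 12.26, 11.51 and 11.99 in NS-GFP4+. Its NS-GFP1+ samples overlapped those of NS-GFP3+ and NS-GFP4+, and NS-GFP4+ minus NS-GFP1+ was 0.48 (limma adjusted p = 0.670).

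The mean of the 12 erythroid genes on the array was 8.87 ± 0.23, 9.30 ± 0.39, 9.31 ± 0.54 and 9.41 ± 0.19 (SD, n = 3) from NS-GFP1+ to NS-GFP4+. Of the 9 above the median throughout, Epor and Car2 were higher and Tfrc lower in NS-GFP4+ than in NS-GFP1+ in limma, leaving aside Hbb-b1, which was chosen on this comparison. The erythropoietin receptor gene Epor differed by 1.29 and the carbonic anhydrase gene Car2 by 0.99, and Gata1, the erythroid and megakaryocytic transcription factor, by 0.62 (adjusted p = 0.109). The list mean includes Hbb-b1 itself, and over samples it ranged from 8.66 to 9.11 in NS-GFP1+ and from 9.03 to 9.74 in NS-GFP2+. The part of the list in the result was not tested.

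Spic, an Ets factor known from red pulp macrophages, was the only member from the macrophage and dendritic cell list. It read 6.45, 6.42 and 6.93 in NS-GFP1+, 7.17, 7.11 and 7.61 in NS-GFP2+, 7.002, 7.06 and 7.75 in NS-GFP3+ and 7.30, 7.62 and 7.81 in NS-GFP4+. Replicate 3 was the highest sample of each fraction, and NS-GFP1+ replicate 3 was 0.07 below the lowest later sample. The mean of the 12 listed genes, Spic included, did not rise with it and was 8.32 ± 0.23, 8.26 ± 0.13, 8.24 ± 0.17 and 8.18 ± 0.17 (SD, n = 3) from NS-GFP1+ to NS-GFP4+. Adgre1 and C1qa, defining genes of macrophages, lay below the median in all 12 samples. Of the 8 listed genes above the median throughout, the member Spic was chosen on the comparison of NS-GFP4+ with NS-GFP1+ and is left aside. Of the others, Itgax was lower in NS-GFP4+ than in NS-GFP1+ in limma, and none was higher.

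Nacc2, a transcriptional repressor with a BTB domain, differed by 0.75, and Rgs11, which speeds the shut-off of G proteins, by 0.94. Rgs11 read 7.05, 6.78 and 6.84 in NS-GFP1+, 7.48, 7.71 and 7.33 in NS-GFP2+, 7.79, 7.55 and 7.74 in NS-GFP3+ and 7.92, 7.78 and 7.78 in NS-GFP4+. Its later 9 samples lay at 7.33 to 7.92, above the 3 NS-GFP1+ samples. Rhobtb3 differed by 0.73, and Pdlim7, a PDZ and LIM domain protein of the cytoskeleton, by 0.72. Pdlim7 read 6.65, 6.82 and 6.63 in NS-GFP1+, 6.89, 7.39 and 7.24 in NS-GFP2+, 6.97, 6.84 and 6.94 in NS-GFP3+ and 7.42, 7.55 and 7.28 in NS-GFP4+. It reached a share of 0.66 at NS-GFP2+ but 0.31 at NS-GFP3+, and its last step of 0.50 (SE 0.12, limma adjusted p = 0.117, and 0.0391 when replicate numbers are blocked) had no overlap between the samples.

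Dnaja4 and Dnajb2, both co-chaperones of the Hsp40 family that feed clients to Hsp70, were among the rising members. Dnaja4 read 7.78, 7.77 and 7.91 in NS-GFP1+, 8.41, 8.49 and 8.45 in NS-GFP2+, 8.37, 8.64 and 8.24 in NS-GFP3+ and 8.81, 8.86 and 8.75 in NS-GFP4+. Its NS-GFP1+ samples were lowest, NS-GFP2+ and NS-GFP3+ overlapped, and all NS-GFP4+ samples lay above all others. The last step of Dnaja4 was 0.39 (SE 0.10, limma adjusted p = 0.120, and 0.0459 when replicate numbers are blocked). The heat shock element was found in 2 copies in 1 window of Dnaja4, and not in those of Dnajb2.

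Dnajb2, 4 more rising genes and Il18 are named so that each member gene is accounted for, which was decided after their values were seen. Dnajb2 differed by 0.62, the zinc finger gene Zfp467 by 0.65, Pole, the catalytic subunit of DNA polymerase epsilon, by 0.64, the homeobox gene Six5 by 0.62 and Oas1c, of the oligoadenylate synthetase family, by 0.62. Pole had the highest share of the rising members at NS-GFP2+, 0.89, and 0.50 at NS-GFP3+. The unnamed rising probes A_30_P01031155, A_30_P01019476 and A_30_P01022038 differed by 1.02, 0.93 and 0.87.

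Ctla2a and Ctla2b, which encode inhibitors of cysteine proteases that resemble the propeptide of cathepsins, were the only member genes that lie within a few genes of each other. They are 2 genes apart on chromosome 13. Ctla2a read 15.09, 15.003 and 14.93 in NS-GFP1+, 15.46, 15.46 and 15.38 in NS-GFP2+, 15.59, 15.43 and 15.56 in NS-GFP3+ and 15.65, 15.55 and 15.64 in NS-GFP4+. Ctla2b read 13.60, 13.55 and 13.42 in NS-GFP1+, 14.05, 13.88 and 13.80 in NS-GFP2+, 14.12, 13.97 and 14.04 in NS-GFP3+ and 14.20, 14.21 and 14.06 in NS-GFP4+. Both had tight NS-GFP1+ values below every other sample, and the rise to NS-GFP4+ was 0.61 and 0.64, of which 0.70 and 0.61 were present at NS-GFP2+. The genes are close paralogs whose probes may share transcripts. On the per-array files Ctla2a did not meet the criteria, while Ctla2b did. Their upstream windows are shown because they let the 2 copies be compared, with the same capitals as above. They lie at chr13:60936626-60936875 (Ctla2a) and chr13:60897448-60897697 (Ctla2b), both on the minus strand.
Ctla2a: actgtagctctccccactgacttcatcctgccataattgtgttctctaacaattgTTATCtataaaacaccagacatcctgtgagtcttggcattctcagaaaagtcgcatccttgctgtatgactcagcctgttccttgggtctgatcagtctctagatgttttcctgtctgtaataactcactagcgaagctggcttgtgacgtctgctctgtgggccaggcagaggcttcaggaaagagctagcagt
Ctla2b: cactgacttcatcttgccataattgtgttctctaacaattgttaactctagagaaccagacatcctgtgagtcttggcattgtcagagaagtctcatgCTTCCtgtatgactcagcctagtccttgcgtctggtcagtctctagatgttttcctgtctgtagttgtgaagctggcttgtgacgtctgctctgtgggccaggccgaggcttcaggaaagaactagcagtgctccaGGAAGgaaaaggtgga

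These windows aligned with 208 identical bases in 272 columns, or 76.5%. The Ctla2a window held 1 GATAA and no GGAAG, and the Ctla2b window 2 GGAAG and no GATAA. A second RefSeq start of Ctla2a gave a window with 63.1% identity to that of Ctla2b, with 1 GGAAG and no GATAA, so the motif counts depended on the start site.

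The rising members had reached a median of 0.65 of their difference at NS-GFP2+ and 0.76 at NS-GFP3+, where single members ranged from 0.31 to 1.03. In the falling members the medians were 0.71 and 0.96, and single members ranged from 0.49 to 1.64 at NS-GFP3+. Rising last-step probes had median shares of 0.22 at NS-GFP2+ and 0.34 at NS-GFP3+, and falling ones 0.21 and 0.33, as their criteria ask. Means ran in the order of the fraction numbers in 16 of the 23 rising and 6 of the 14 falling members. No test of a difference between rising and falling members was made.

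The later steps were compared over all 18876 probes in limma. The criteria use the NS-GFP2+ and NS-GFP4+ means and the position of all later samples against NS-GFP1+. They therefore limit the size of these differences in the members and also bear on their direction. For NS-GFP3+ against NS-GFP2+, 0 of the 37 members passed an adjusted p of 0.05, as did 0% of all probes. With replicate numbers blocked, the count was again 0 members, against 0.132% of all probes. At an unadjusted p under 0.05 there were 0 rising members, against 1.77% of all probes higher, and 3 falling members lower, Vpreb2, Pde2a and Sapcd1, against 2.1% of all probes lower.

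At this step most members, though not all, lay further from NS-GFP1+, a direction on which the criteria bear. NS-GFP3+ lay above NS-GFP2+ in 17 of the 23 rising members and below it in 10 of the 14 falling members. Over all 18876 probes it lay above in 9589 and below in 9287. The median difference was 0.08 over the rising members, with a range of -0.26 to 0.30, and -0.17 over the falling members, with a range of -0.87 to 0.11. The samples of these fractions were apart in 0 rising members, where 3.97% of all probes were apart upward, and in 4 falling members, Sapcd1, Marcks, Vpreb2 and Pde2a, where 4.5% were apart downward. The largest of these differences was that of Vpreb2.

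For NS-GFP4+ against NS-GFP3+, 0 of the 37 members passed, against 0.678% of all probes. At an unadjusted p under 0.05, 5 rising members were higher, namely Dnaja4, Pdcd1lg2, Pdlim7, Pole and Zfp467, against 4.7% of all probes. Of the falling members, Krtap16-3 was lower, against 5.65% of all probes, and Chchd10 and 1 Prkcb probe were higher. With replicate numbers blocked, 4 members were higher, Dnaja4, Pdcd1lg2, Pdlim7 and the Prkcb probe A_65_P20249, against 1.98% of all probes higher. The call for these 4 thus depended on the block.

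NS-GFP4+ lay above NS-GFP3+ in 22 of the 23 rising members and below it in 9 of the 14 falling members. Over all 18876 probes it lay above in 8902 and below in 9973. The size criterion used the NS-GFP4+ mean, so the member counts are a description only. The median difference was 0.20 over the rising members, with a range of -0.02 to 0.50, and -0.05 over the falling members, with a range of -0.42 to 0.43. The samples were apart upward in 5 rising members, the same 5 as above, where 6.67% of all probes were apart upward. In the falling members they were apart downward in Krtap16-3, where 9.18% of all probes were, and upward in 1 Prkcb probe.

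The difference of NS-GFP4+ from NS-GFP2+ is made of means that the share criterion used, so no count of called members is given for it or for the comparisons with NS-GFP1+.

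Other probes of the same genes were not used to choose the members, though they come from the same samples. Of the 31 member genes, 10 rising genes had 15 other probes, and 21 genes had none, the falling genes among them. All 15 had a higher mean in NS-GFP2+ and in NS-GFP4+ than in NS-GFP1+. Some were dim: A_51_P308549 of Dnaja4, A_55_P2178539 of Nacc2 and A_55_P2455460 of Pole were above the median in 0 samples. That of Nacc2 differed by only 0.05 and 0.06. Of the 15, 10 probes of 6 genes lay above the median in all 12 samples. Of these 10, 6 passed limma for NS-GFP4+ against NS-GFP1+, where 6.39% of all probes were higher. They were the probes of Zfp467 and a probe each of Ccl27a, Pdcd1lg2 and Pdlim7. The genes were chosen on this difference in the same samples, so the count is a description only. The following values are for the 10. Their median difference was 0.60 between NS-GFP4+ and NS-GFP1+ and 0.19 between NS-GFP2+ and NS-GFP1+. At the first step 0 of the 10 passed in limma, where 0.106% of all probes were higher.

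The second Pdcd1lg2 probe, A_55_P2187141, had the largest difference of these and read 6.66, 6.61 and 6.25 in NS-GFP1+, 7.25, 7.26 and 7.36 in NS-GFP2+, 7.42, 7.48 and 7.76 in NS-GFP3+ and 7.86, 8.02 and 8.19 in NS-GFP4+. The samples lay in the order of the fraction numbers without overlap. The difference between NS-GFP4+ and NS-GFP1+ was 1.52, with 0.51 of it at NS-GFP2+ (limma adjusted p = 0.0502 in the NS-GFP2+ comparison with NS-GFP1+). The 2 probes of the gene thus had the same direction, and the second had its change spread more evenly over the steps.

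The 9 further probes above the median in all samples also had a smaller share at NS-GFP2+ than the member probe of their gene. The member probe of Zfp467 had a share of 0.63, and the other probes A_55_P2126950, A_55_P2175400 and A_55_P2175405 had shares of 0.57, 0.31 and 0.27, with limma adjusted p of 0.00282, 0.000587 and 0.00369 for NS-GFP4+ against NS-GFP1+. A Ccl27a probe, A_55_P2068723, had a share of 0.53 and another, A_55_P2070576, 0.28. The Pdlim7 probes A_55_P2105271 and A_55_P2161865 had shares of 0.37 and 0.45. The bright Pole probe A_55_P2007273 had a difference of 0.40 with a share of 0.05, and a Rhobtb3 probe, A_52_P348720, had 0.68 with a share of 0.23 (adjusted p = 0.157). The member probes were chosen for a high share and the others were not, and no test of the difference was made.

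The criteria did not use the contrast of replicate 3 with replicates 1 and 2 over all fractions as such. Each replicate 3 value did enter the means or the separation, so the member counts are a description only. Among the 23 rising members 11 were higher in replicate 3, where 18.1% of all probes were, and Dnajb2 was lower, where 16.5% were. The largest difference was 0.51 in Spic (SE 0.07, limma adjusted p = 0.00098). Il18, Vldlr, Gas6, Nacc2, Rhobtb3, Ccl27a and Six5 and the 3 unnamed rising probes were higher by 0.17 to 0.39. Of the 14 falling members 0 were higher and only Sapcd1 was lower, by 0.21. The offset of replicate 3 was 0.51 in Spic, 0.36 in Il18 and 0.34 in Nacc2, beside differences of 0.70, 0.41 and 0.50 between NS-GFP2+ and NS-GFP1+, and its source was not tested.

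Genes of the long-term stem cell list moved along the sort, but none of the list was a member. The member Emcn, described above as a gene of endothelium and of stem cells, was on the endothelial list. Of 27 genes of long-term stem cells listed, 23 were on the array and 18 above the median throughout. In limma 15 of these were higher in NS-GFP4+ than in NS-GFP1+, where 6.39% of all probes were, and 0 lower, where 5.33% were. The median difference was 1.24 over the 18, against -0.0091 over all probes. This list, like the others, was chosen with earlier results of these data known. The 15 with a difference of at least 0.6 had reached 17.2% to 45.8% of it at NS-GFP2+, with a median of 28.0%. Procr, the endothelial protein C receptor of stem cells, and Esam, an adhesion molecule, were the 2 that also passed at the first step, by 0.99 and 0.88.

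The lymphoid-primed and the myeloid lists had no member either. Of 12 lymphoid-primed genes above the median throughout 8 were lower in NS-GFP4+ and 0 higher, where 5.33% and 6.39% of all probes were. The 7 with a difference of at least 0.6 had a median share of 19.1% at NS-GFP2+. Of 18 myeloid genes 8 were lower and 0 higher, against the same percentages of all probes. The 9 with such a difference had a median share of 31.2%. The 3 B-cell genes had 54.1% and the 7 erythroid genes with such a difference, Hbb-b1 among them, 43%.

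The remaining lists held no member. In limma for NS-GFP4+ against NS-GFP1+, 0 of 25 nucleolar and ribosome biogenesis genes and 0 of 15 oxidative phosphorylation genes were called in either direction, where 11.7% of all probes were. The numbers higher and lower were 3 and 0 of 31 cell cycle genes, 5 and 0 of 19 immediate early genes, 5 and 1 of 18 interferon-induced genes, 0 and 1 of 14 MHC genes, 1 and 1 of 14 hypoxia and glycolysis genes and 9 and 2 of 24 stem cell transcription factor genes. They were 2 and 0 of 8 megakaryocyte genes, 1 and 1 of 4 T and NK cell genes and 0 and 2 of 4 mast cell genes.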

How the data were processed

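Total RNA of 12 samples, 3 of each NS-GFP fraction, was hybridised with Cy3 label only, per the labels' protocols. The table deposited by the authors holds log2 values of 42022 non-control probes and 49 control rows, and 1 deposited file per array holds a linear intensity per probe. The table ranks the probes as the per-array files do for 11 samples (Spearman 1). The sources used here do not give the scanner software, the background treatment or how the table was normalised. Nothing gives detection flags, and the number of arrays limits the precision.

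The members and the 18 gene lists were chosen with earlier results of these data known. Probes were named through GEO's platform annotation updated with RefSeq: 24406 had 1 gene symbol and 17616 none. A limma model (limma 3.58.1, R 4.3.3) took 1 mean for each fraction and was fitted to log2 values of the 18876 probes above the column median in all 12 samples, with Benjamini-Hochberg adjustment over all of them and a threshold of 0.05, and was tested on simulated data. Gene lists use the probe with the highest mean per gene. Tables were made with Python 3.11.15 and pandas 2.3.3.

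Named genes are the 12 with the largest difference in each direction, members on the lists, genes with several member probes, members and non-members at the edges of the criteria, and Kit, Gnl3 and Ly6a. Replicate numbers come from the labels, where their meaning is not stated. Same-numbered samples deviated together with r of 0.10 to 0.80 over the 6 comparisons, all above 0.1, so the number was taken to pair them. The main limma fit nevertheless had no block. The block is given for members at the later steps and for counts over all probes. Calls of list genes and of other probes of member genes are from the fit without it, so they do not use the pairing. Samples did not always correlate best with their own number. Alternatives were the per-array values, other filters, thresholds and weights, and leaving out samples.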

Additional observations from a re-analysis of the deposited data

How the results depend on the processing

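The number of members, 23 rising and 14 falling, moved with most of the criteria. It was 38 and 21 at a size of at least 0.5, and 3 and 4 at a size of at least 1. At a share of at least 0.5 it was 60 and 34, and at a share of at least 0.8 it was 1 and 4. With no separation asked for it was 40 and 34, with a level above the median in at least 1 fraction 35 and 33, and without any filter on level 103 and 130. The per-array files gave 23 and 17, with 33 of the 37 members among them. Those not among them were Marcks, Ctla2a, Rhobtb3 and Pdlim7. Leaving out single samples gave 19 to 108 rising and 12 to 44 falling members. The highest counts were without NS-GFP1+ replicate 3. Of the NS-GFP2+ samples, leaving out replicate 1 or 2 gave 35 or 54 rising members. Leaving out replicate 3 gave 20 rising and 23 falling members. Of the 37 members 22 were then still among them, 11 of the 23 rising and 11 of the 14 falling, the fewest for any single sample. Leaving out replicate number 1, 2 or 3 in all fractions gave 51, 46 and 54 rising and 43, 15 and 32 falling members. The members kept whichever sample was left out were 8, namely Gas6, Dnaja4, Pdcd1lg2, Aif1, 1 Prkcb probe, Vpreb2, Papss2 and Pde2a.

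Counts of all probes called in limma, without and then with the replicate number as a block to use the pairing, were 0 and 25 for NS-GFP3+ against NS-GFP2+. They were 128 and 777 for NS-GFP4+ against NS-GFP3+, 37 and 347 for NS-GFP2+ against NS-GFP1+, 2214 and 3914 for NS-GFP4+ against NS-GFP1+, 459 and 1423 for NS-GFP3+ against NS-GFP1+, and 738 and 1820 for NS-GFP4+ against NS-GFP2+. Array weights gave 4, 1510, 119, 3437, 1776 and 1664 in this order. Members called for NS-GFP4+ against NS-GFP3+ were 4 with the block and 5 with weights, where 777 and 1510 of the 18876 probes were called. The fit to 2 fractions alone gave 0 for NS-GFP4+ against NS-GFP3+, 3 for NS-GFP2+ against NS-GFP1+ and 96 for NS-GFP3+ against NS-GFP1+. Replicates 1 and 2 alone gave 441, 95 and 1152 for these. Probes above the median in at least 1 fraction gave 223 and 87 for the first 2 of these, and no filter gave 44 for the first. A difference of at least 0.6 as well left 81 of the 128. The per-array files with 16 added and quantile scaling gave 209 for NS-GFP4+ against NS-GFP3+ and 256 for NS-GFP3+ against NS-GFP1+, and with the 75th percentile 239 for the last. Leaving out single samples gave 0 to 3 calls at the middle step, with 3 without NS-GFP4+ replicate 2. At the last step it gave 19 to 216, the lowest without NS-GFP3+ replicate 2 and the highest without NS-GFP3+ replicate 3, with 169 without NS-GFP1+ replicate 3 and at most 73 when any of the others was left out. At the first step it gave 7 to 46, the lowest without NS-GFP1+ replicate 2 or NS-GFP2+ replicate 3. It gave 1458 to 2300 for NS-GFP4+ against NS-GFP1+ (lowest without NS-GFP1+ replicate 1), 178 to 701 for NS-GFP3+ against NS-GFP1+ (without NS-GFP1+ replicates 2 and 3 in turn) and 370 to 889 for NS-GFP4+ against NS-GFP2+ (lowest without NS-GFP2+ replicate 1). It gave 0 members at both later steps, and 8 to 10 of the other probes of member genes had the direction of the member at both NS-GFP2+ and NS-GFP4+. The causes were not tested, and the 3 arrays a fraction limit the precision.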
